A study of Mus musculus with 6 samples.

Results

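The respiratory chain and ATP synthase of the mitochondrial inner membrane are built from subunits encoded mostly in the nucleus. A gene counted as a member when its symbol matched a rule and a transcript cluster of the array carried that symbol alone. The rule took symbols beginning with Nduf (complex I), Sdh (complex II), Uqcr (complex III), Cox5 to Cox8 (complex IV) or Atp5 (complex V). It took most forms that name subunits, but not Cox4i1, Cox4i2 or Ndufab1. This gave 78 genes of 19938 with a single symbol, read from 102 transcript clusters, which are probe sets summarized to 1 value each. For a gene with several, the cluster whose mean over the 6 arrays was highest was used. Complex I contributed 34 genes, complex II 4, complex III 8, complex IV 15 and complex V 17. These counts follow the symbols alone. Ndufa4 was thus counted in complex I, although its protein is now assigned to complex IV.

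MLE15 is a mouse lung epithelial line from tumors of mice in which the promoter of human surfactant protein C drives simian virus large T antigen. Cells were transduced with pLKO.1 lentivirus carrying a mix of 3 shRNAs against Nkx2-1 (Nkx2-1-shRNA, 3 lines) or with the empty vector (control, 3 lines), and both were selected in puromycin. The labels give 48 h and an empty vector, whereas the methods describe stable lines and a non-silencing control. The methods call the lines independently transduced. Total RNA of each line was hybridized to 1 Affymetrix Mouse Gene 1.0 ST array and the values are log2 intensities. Such values cannot tell less RNA per cell from fewer cells that hold it. Nkx2-1, the homeobox factor targeted, was 7.91, 7.98 and 7.83 in the knock-down lines, against 8.61, 8.61 and 8.59 in the control lines, and fell to 61.8% of control (adjusted p = 0.00155). Of 9 lung epithelium markers 2 rose and 3 fell, Nkx2-1 itself among those that fell. The log2 fold changes of these markers ran from -3.65 to 0.44. None of 5 fibroblast, 3 leukocyte and 3 endothelium markers was called. The endothelium markers, Ptprc and Dcn were below the background limit of 4.35, while 4 fibroblast and 2 leukocyte markers were above it in at least 1 group. Olfactory, taste and vomeronasal receptor genes, with 1250 transcript clusters, set that limit by their 95th percentile. Of the 78 members 77 exceeded it in at least 1 group, all but Cox7b2.

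Complex I takes electrons from NADH and complex II from succinate. Both pass them to ubiquinone, from which complex III moves them to cytochrome c and complex IV to oxygen. Complexes I, III and IV pump protons, and complex V lets them back through its rotating c ring to make ATP. Several complex IV subunits and the c subunit exist as alternative isoforms from separate genes, some of them used mainly in heart and skeletal muscle or in testis. In alveolar type II cells, the lung cells that make surfactant and that MLE15 cells partly resemble, mitochondria supply ATP for lipid synthesis and secretion.

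Of the 78 members 4 rose, 11 fell and 63 were not called at an adjusted p under 0.05. Members called higher made up 5.13%, where 7.61% of all 35557 transcript clusters and 15.3% of the 13571 genes above background were called higher. Members called lower made up 14.1%, a share near the 13.9% of genes above background (9.24% of all transcript clusters). No member passed the stricter threshold of the study (an adjusted p below 0.0005 together with a change of over 0.6 on the log2 scale), which 1.26% of transcript clusters passed. In limma an unadjusted p under 0.05 was found for 33 of the 78 members and for 6079 of the 13571 genes above background. The log2 fold change was negative in 53 members and positive in 25, with a median of -0.11, against -0.0040 over the genes above background. It ran from -1.11 for Atp5g3 to 0.83 for Ndufa9. With each array centred on its median, 5 members rose and 8 fell, 42 were negative and the median was -0.03. This centring, on all transcript clusters, raised every log2 fold change by about 0.08. The genes above background moved by the same amount, so their distance from the members was unchanged. The calls of Ndufa9, Atp5g1 and Atp5g3 held under all 16 alternative settings run at the same threshold, and those of Uqcrh and Cox7a1 were lost only in a t-test for unequal variances (adjusted p = 0.0709 and 0.113). Each of the other 10 calls was lost in 3 to 9 of these settings. Groups did not overlap for 35 of the 78 members, 10 higher and 25 lower, where 52.5% of genes above background did not overlap.

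**Figure D1:**
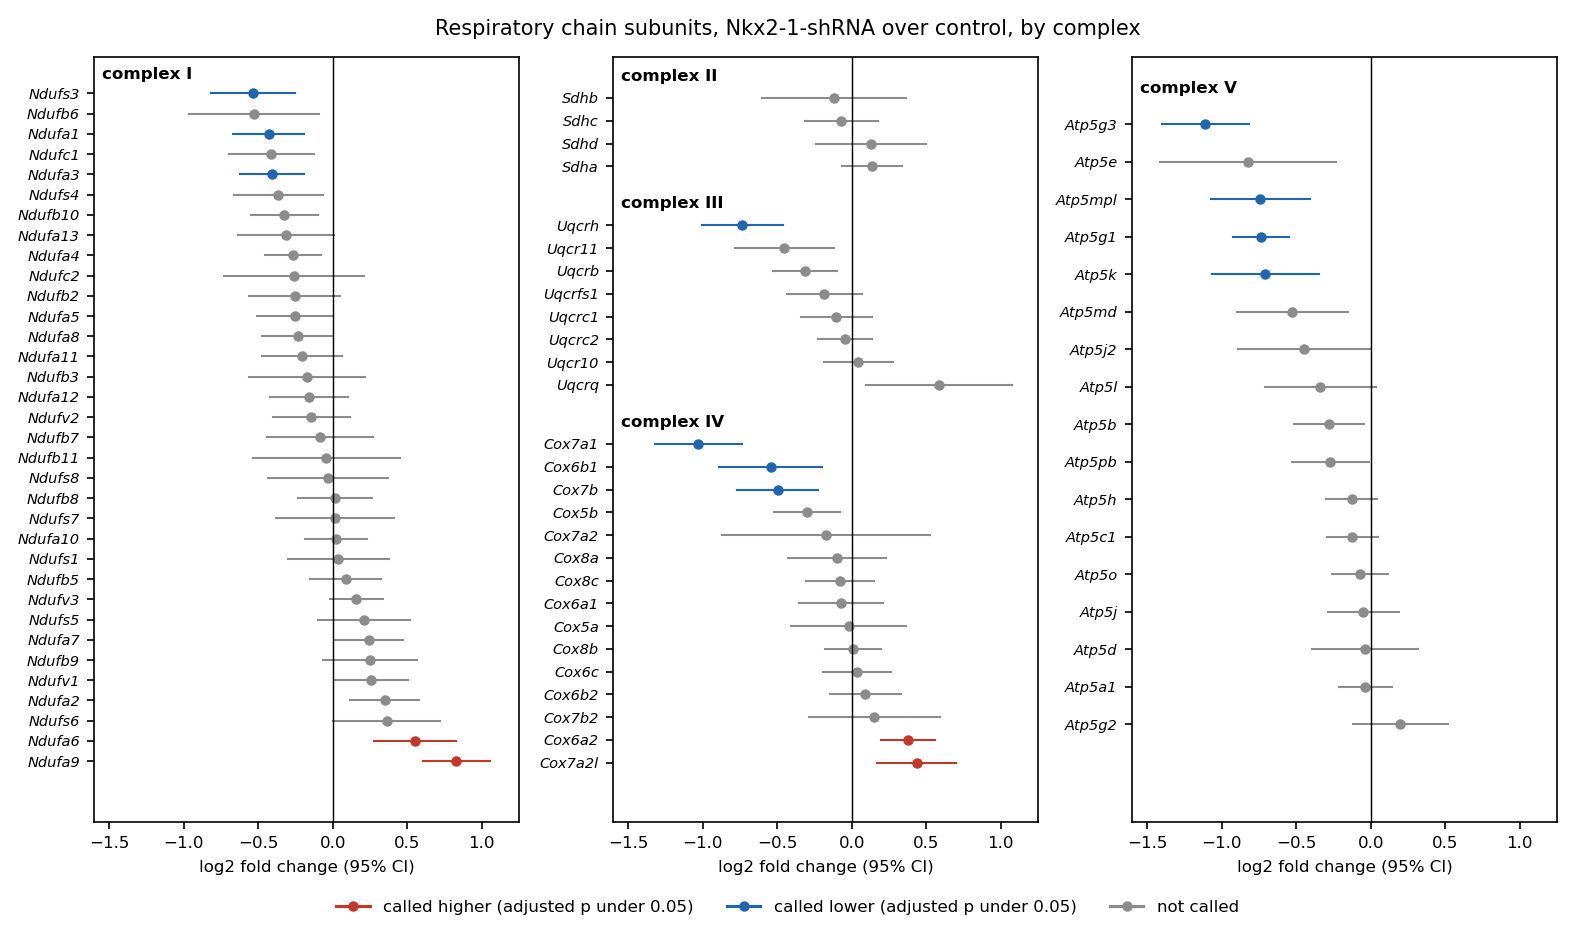
Each point is the log2 fold change of 1 of the 78 subunits (Nkx2-1-shRNA over control, 3 arrays each) and each line its 95% confidence interval from limma, sorted within complexes I to V. Red points were called higher (4), blue points called lower (11), and 16 of the 17 complex V points lie left of 0.

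Promoters are shown for Ndufa9, Uqcrh and Cox7a1, the members with the largest change in complexes I, III and IV, and for Atp5g1 and Atp5g2, c ring genes that encode the same mature protein and had different values. Each run is the 120 bases just before the outermost RefSeq start of the gene in GRCm38.p6, printed 5′ to 3′ on the gene's strand. Atp5g3, the c ring gene with the largest change of any member, is not shown because none of its windows held 120 bases before that start. The stretches are chr11:96075695-96075814 (minus strand, Atp5g1), chr15:102671048-102671167 (minus, Atp5g2), chr4:116075071-116075190 (minus, Uqcrh), chr6:126849145-126849264 (minus, Ndufa9) and chr7:30184051-30184170 (plus, Cox7a1). Capitals mark an NRF1 motif in Atp5g2 and, in Uqcrh, the ETS motif CCGGAAG read on the other strand.
Atp5g1: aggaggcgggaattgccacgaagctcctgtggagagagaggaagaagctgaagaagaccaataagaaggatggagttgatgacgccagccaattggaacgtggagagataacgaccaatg
Atp5g2: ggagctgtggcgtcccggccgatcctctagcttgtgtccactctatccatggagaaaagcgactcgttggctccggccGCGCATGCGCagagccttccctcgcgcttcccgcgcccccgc
Uqcrh: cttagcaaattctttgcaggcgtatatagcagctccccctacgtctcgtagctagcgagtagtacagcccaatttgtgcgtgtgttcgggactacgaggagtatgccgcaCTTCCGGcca
Ndufa9: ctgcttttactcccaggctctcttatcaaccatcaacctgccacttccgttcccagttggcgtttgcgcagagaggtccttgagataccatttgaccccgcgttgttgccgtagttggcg
Cox7a1: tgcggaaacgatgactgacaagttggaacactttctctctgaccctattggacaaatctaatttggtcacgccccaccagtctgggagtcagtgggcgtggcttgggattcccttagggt

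Complex V had the lowest median of the 5 complexes, -0.28. Of its 17 members 4 were lower (23.5%, against 13.9% of genes above background) and none higher (against 15.3%). The log2 fold change was below 0 in 16 of these members, and in 6869 of the 13571 genes above background. The c ring turns as protons pass and has 3 genes whose mature protein is the same. Atp5g3 (transcript cluster 10483756) was 8.93, 9.10 and 8.78 in the knock-down lines, against 9.86, 10.07 and 10.20 in the control lines. All 3 knock-down values were below all 3 control values, and Atp5g3 fell to 46.3% of control (log2 fold change -1.11, SE 0.12, adjusted p = 0.00163). It was the largest change of any member. Atp5g1 (10391100) was 7.66, 7.74 and 7.64 against 8.33, 8.45 and 8.48 in the control lines. It fell by 0.74 on the log2 scale (SE 0.080, adjusted p = 0.00152) and its groups were also far apart. Atp5g2 (10560816) was 9.72, 9.99 and 9.86 against 9.65, 9.89 and 9.44. Its groups overlapped, and its log2 fold change of 0.20 (95% CI -0.12 to 0.52) was not called (adjusted p = 0.398). The intervals of Atp5g1 (-0.93 to -0.55) and Atp5g3 (-1.40 to -0.82) do not reach that of Atp5g2, but the difference between the genes was not tested. After median centring the median of the complex was -0.20.

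Of the 5 small membrane subunits of complex V, which lie beside the c ring and of which several help ATP synthase form dimers, 2 fell and all were below 0. Atp5mpl (10402752) was 8.50, 8.70 and 8.33 in the knock-down lines, against 9.06, 9.47 and 9.22 in the control lines. It fell to 59.9% of control (log2 fold change -0.74, SE 0.14, adjusted p = 0.0137). Atp5k (10532164), which encodes subunit e, was 6.91, 6.72 and 6.67 against 7.20, 7.46 and 7.75, and fell to 61.2% (log2 fold change -0.71, SE 0.15, adjusted p = 0.0207). The groups of both genes stood apart. The call of Atp5mpl was lost without Nkx2-1-shRNA replicate 1 (adjusted p = 0.0510), and that of Atp5k without Nkx2-1-shRNA replicate 2 (0.0709), Nkx2-1-shRNA replicate 3 (0.0693) or control replicate 2 (0.0577). Atp5md, Atp5j2 and Atp5l had log2 fold changes of -0.53, -0.45 and -0.34 and were not called.

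None of the 5 members of F1, the catalytic head, and none of the 4 of the peripheral stalk, which holds the head still, was called. Atp5b, the catalytic beta subunit, was 11.35, 11.54 and 11.34 against 11.55, 11.74 and 11.77 in the control lines. Its groups did not overlap, but its log2 fold change of -0.28 was not called (95% CI -0.52 to -0.04, adjusted p = 0.112). Atp5a1, the alpha subunit, was 11.68, 11.74 and 11.65 against 11.78, 11.72 and 11.68, a log2 fold change of -0.04 (95% CI -0.21 to 0.14). Atp5e, the smallest F1 subunit, is named after its values were seen because it had the second lowest log2 fold change in complex V, -0.82. It was 7.24, 7.41 and 7.37 against 7.79, 7.93 and 8.78, was not called (adjusted p = 0.0682), and its control replicate 3 was far above the other control lines. The stalk members ran from -0.27 (Atp5pb) to -0.05 (Atp5j).

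**Figure D2:**
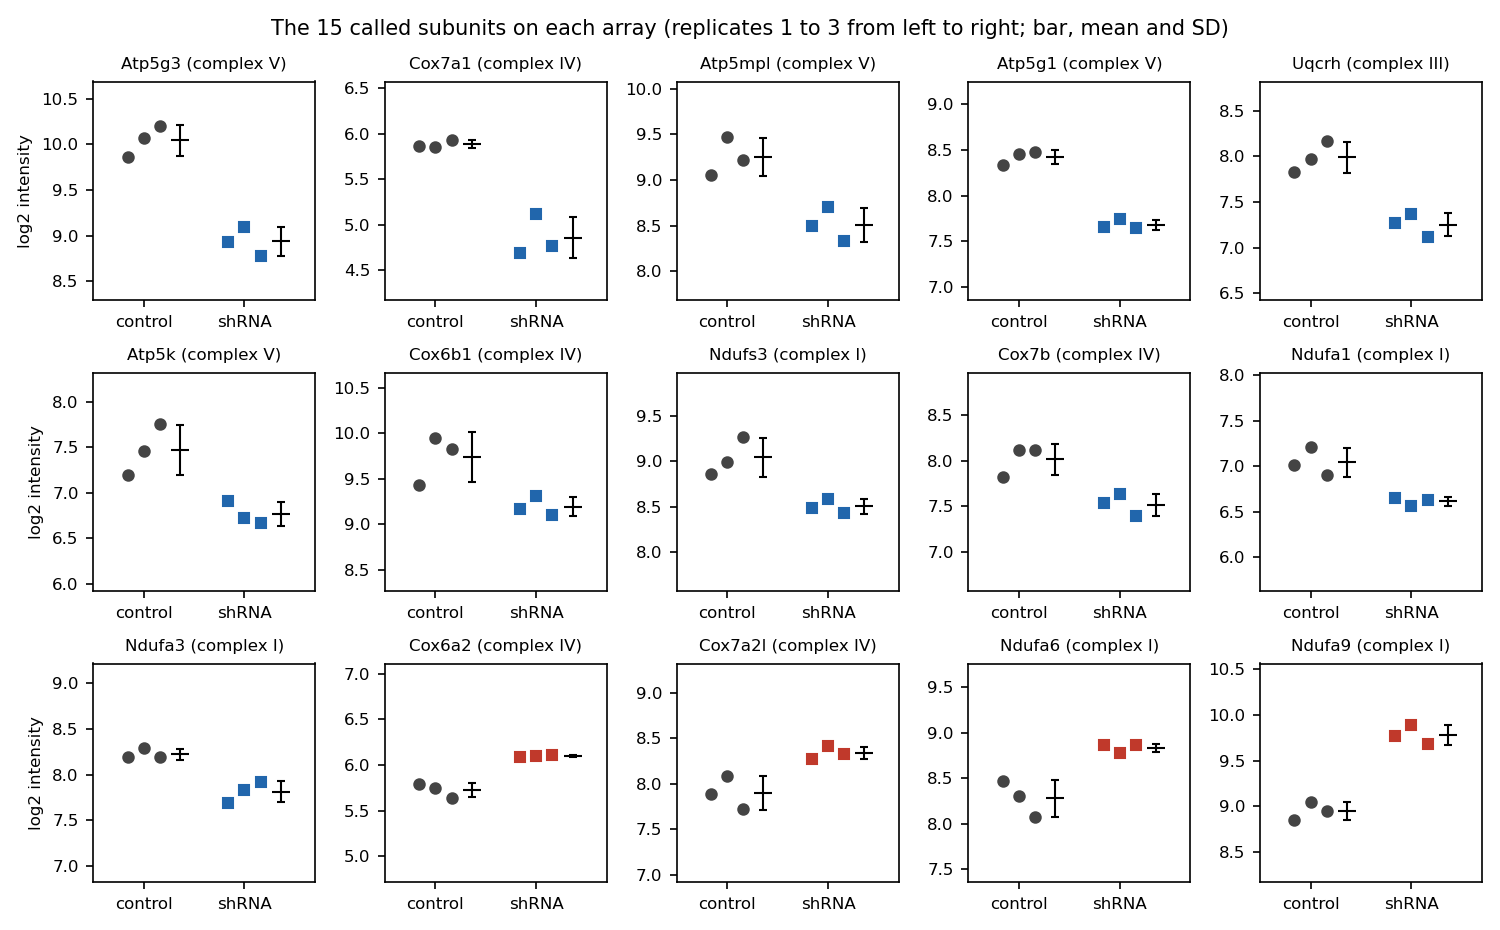
Log2 intensity of the 15 called subunits on each array, with circles for the 3 control lines, squares for the 3 Nkx2-1-shRNA lines (blue where called lower, red where called higher) and a bar for the mean and SD. Every panel spans the same log2 range. In none of them do the groups overlap, but the genes were picked by their calls on these same arrays. Groups also did not overlap for 52.5% of genes above background.

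Complex IV had 2 members higher and 3 lower of 15, with a median of -0.07. Median centring, which raised every log2 fold change by about 0.08, gave 0.0086. Among the 3 isoforms known mainly from striated muscle, 1 rose, 1 fell and 1 was not called. Cox7a1 (10551836), the muscle form of subunit 7a, was 4.69, 5.12 and 4.77 in the knock-down lines, against 5.87, 5.85 and 5.93 in the control lines. The control lines were close together, and Cox7a1 fell to 49.0% of control (log2 fold change -1.03, SE 0.12, adjusted p = 0.00223). Its values in the knock-down lines lay near the background limit of 4.35. Cox6a2 (10568369), the muscle form of subunit 6a, was 6.09, 6.10 and 6.11 against 5.79, 5.75 and 5.64, and rose by 0.38 on the log2 scale (SE 0.077, adjusted p = 0.0182). Its call was lost without Nkx2-1-shRNA replicate 1, 2 or 3 (adjusted p = 0.0669, 0.0596 and 0.0637). Cox8b was between 4.41 and 4.58 in every line (log2 fold change 0.01). Of 5 striated muscle markers 1 was called: Tnnt2, cardiac troponin T, rose by 2.35 (adjusted p = 4.4e-05), while Myl2 did not reach the background limit in any line. The part of muscle-type expression in these values was not tested.

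Of the broadly expressed partners of these isoforms, none was called. Cox7a2 was 7.03, 7.23 and 6.60 in the knock-down lines, against 6.50, 7.30 and 7.58 in the control lines, and its interval was the widest of all members that were not called (log2 fold change -0.17, 95% CI -0.87 to 0.52). Cox6a1 had a log2 fold change of -0.07 (95% CI -0.36 to 0.21) and Cox8a of -0.10 (95% CI -0.43 to 0.23). Of the testis forms, Cox6b2 (0.09) and Cox8c (-0.08) lay near the background limit and Cox7b2 below it, and none was called.

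Cox6b1 (10562059), the ubiquitous form of a subunit on the intermembrane side, was 9.17, 9.31 and 9.10 against 9.43, 9.95 and 9.83 in the control lines. It fell to 68.6% of control (log2 fold change -0.54, SE 0.15, adjusted p = 0.0466), the weakest call of the members. The call was lost when Nkx2-1-shRNA replicate 1, 2 or 3 was left out (adjusted p = 0.130, 0.0814 and 0.132), without control replicate 2 (0.116) and without control replicate 3 (0.124). Cox5a, which binds a thyroid hormone derivative, was 8.09, 8.34 and 7.96 against 7.86, 8.19 and 8.40 (log2 fold change -0.02, 95% CI -0.40 to 0.37). Cox5b had a log2 fold change of -0.30, and its groups did not overlap, but it was not called (adjusted p = 0.0710). All 8 common complex IV subunits had their lowest control value on control replicate 1 and their highest Nkx2-1-shRNA value on Nkx2-1-shRNA replicate 2.

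In 4 members, Cox7b, Cox7a2l, Ndufc1 and Uqcrb, the call depended on which transcript cluster was read. Small, abundant mRNAs are known to leave processed copies in the genome, and some transcript clusters carrying a member's symbol stood among genes of another locus; whether they are such copies was not tested. A cluster was placed by the 10 single-cluster genes nearest to its ID, whose order follows the genome; of 944 genes with 1 cluster, 99.7% were placed at their own locus in GRCm38.p6. The cluster with the highest mean stood among genes of another locus for 9 of the 78 members. For Cox7b, a subunit encoded on chromosome X, this cluster (10358709, among genes of chromosome 1) was 7.53, 7.63 and 7.39 against 7.82, 8.11 and 8.11 and fell by 0.50 on the log2 scale (SE 0.11, adjusted p = 0.0278). The cluster at its own locus (10601356) had a log2 fold change of -0.26 (SE 0.13) and was not called (adjusted p = 0.247). For Cox7a2l, a factor that joins complexes III and IV into supercomplexes and is encoded on chromosome 17, the cluster used (10399677, among genes of chromosome 12) was 8.27, 8.41 and 8.33 against 7.89, 8.09 and 7.72. It rose by 0.44 (SE 0.11, adjusted p = 0.0402), whereas the cluster at its own locus (10453254) was not called (0.28 on the log2 scale, SE 0.12, adjusted p = 0.172). Without 1 array, the call of Cox7b was lost for Nkx2-1-shRNA replicates 1 and 3 (adjusted p = 0.0846 and 0.0885) and control replicates 2 and 3 (0.0837 and 0.0787). That of Cox7a2l was lost for all 3 Nkx2-1-shRNA lines (0.0905, 0.121 and 0.102) and control replicates 1 and 3 (0.0980 and 0.0800).

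For Ndufc1 and Uqcrb the cluster used was not called (adjusted p = 0.0601 and 0.0597), whereas a cluster among genes of another locus was called lower (adjusted p = 0.0464 for 10406459 of Ndufc1 and 0.0474 for 10412711 of Uqcrb). Their log2 fold changes were close, -0.41 for both clusters of Ndufc1 and -0.31 and -0.33 in Uqcrb, where the remaining cluster was at -0.25 and not called. In the other 12 members with several clusters, all clusters of a gene had the same call. Atp5g1 at its own locus (10390237) fell by 0.71 (adjusted p = 0.00166). The 3 clusters of Atp5g2 had log2 fold changes of 0.18, 0.19 and 0.20, and the 6 clusters of Atp5l lay between -0.39 and -0.34. Both clusters of Ndufs3 were called lower, with log2 fold changes of -0.54 and -0.53. The cluster used for Cox6c, another complex IV subunit, stands among genes of chromosome 12, a few IDs from that of Nkx2-1, although the gene is encoded on chromosome 15. It was 10.14, 10.15 and 10.00 against 9.92, 10.17 and 10.09 (log2 fold change 0.03), and the cluster at the own locus had a log2 fold change of 0.08. Probes of similar sequence can bind the same mRNA, so clusters of 1 gene are not independent.

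**Figure D3:**
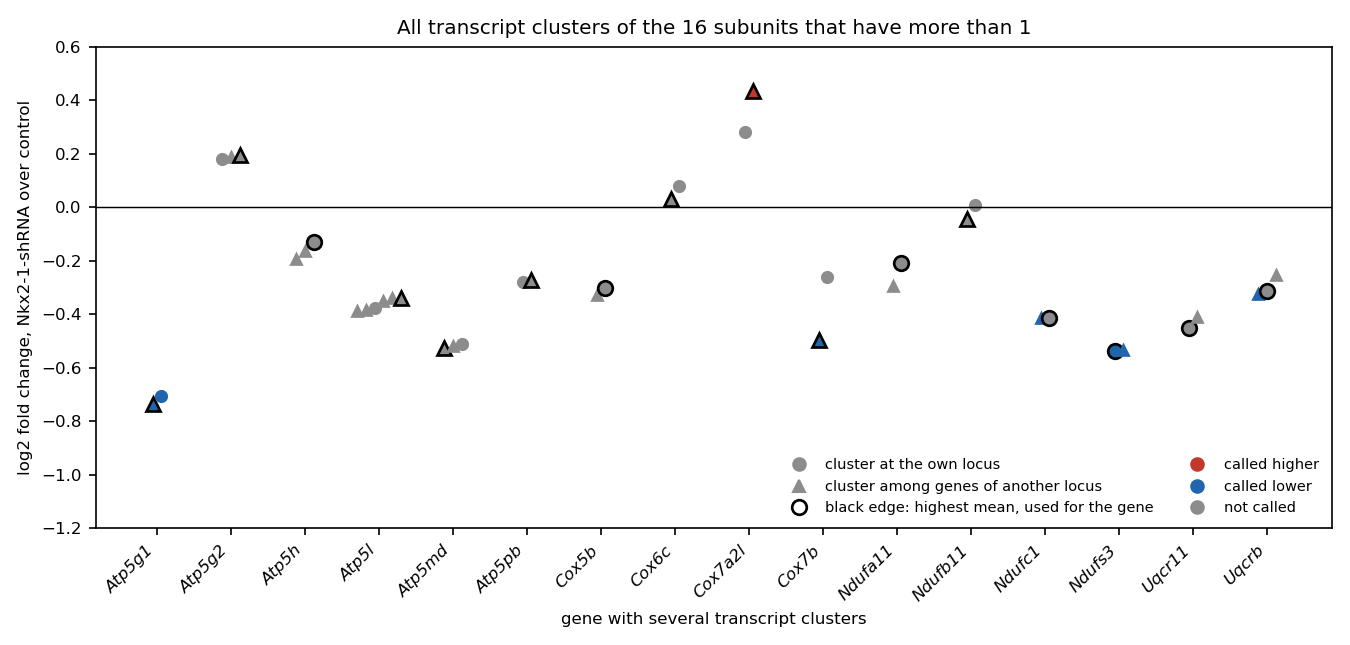
Log2 fold change (Nkx2-1-shRNA over control) of every transcript cluster of the 16 members with more than 1, with circles for clusters at the gene's own locus and triangles for clusters among genes of another locus. Black edges mark the cluster with the highest mean; in Cox7b and Cox7a2l that cluster was called and the own-locus cluster was not.

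Complex I had 2 members higher and 3 lower of 34, with a median of -0.12. Ndufa9 (10548057), an accessory subunit at the joint between the membrane arm and the peripheral arm, was 9.77, 9.89 and 9.68 in the knock-down lines, against 8.85, 9.05 and 8.95 in the control lines. It was the largest rise of the members, to 177% of control (0.83 on the log2 scale, SE 0.094, adjusted p = 0.00182). Its 20 nearest genes above background on chromosome 6, 10 on each side, had a median log2 fold change of 0.31, with 8 higher and none lower. Ndufa6 (10430846), an accessory subunit that anchors the acyl carrier protein, was 8.86, 8.78 and 8.86 against 8.47, 8.30 and 8.07. It rose by 0.55 (SE 0.12, adjusted p = 0.0192), while its neighbors on chromosome 15 had a median of -0.08. Its call was lost without Nkx2-1-shRNA replicate 1, 2 or 3 (adjusted p = 0.0695, 0.0529 and 0.0635) or control replicate 2 (0.0523).

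Ndufs3 (10484912), a core subunit of the peripheral arm, was 8.49, 8.59 and 8.43 against 8.86, 8.99 and 9.27 in the control lines. It fell to 68.9% of control (log2 fold change -0.54, SE 0.12, adjusted p = 0.0239), and its neighbors on chromosome 2 had a median of -0.18, with 6 lower and none higher. Ndufa1 (10604100), a small membrane subunit needed for assembly, was 6.65, 6.56 and 6.63 against 7.01, 7.21 and 6.90 and fell by 0.43 (SE 0.099, adjusted p = 0.0275). Ndufa3 (10549546), also a small membrane subunit, was 7.69, 7.83 and 7.92 against 8.19, 8.29 and 8.19 and fell by 0.41 (SE 0.090, adjusted p = 0.0231). No Nkx2-1-shRNA line reached a control line in these 3 genes. All 3 calls were lost without Nkx2-1-shRNA replicate 1 (adjusted p = 0.0794 for Ndufs3, 0.0778 for Ndufa1 and 0.0842 for Ndufa3), replicate 2 (0.0544, 0.0901 and 0.0676) or control replicate 2 (0.0566, 0.0634 and 0.0728). Those of Ndufs3 and Ndufa1 were also lost without Nkx2-1-shRNA replicate 3 (0.0796 and 0.0745), and those of Ndufa1 and Ndufa3 without control replicate 1 (0.0641 and 0.0551).

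The other 5 core subunits analysed, of a class that carries the flavin, the iron-sulfur clusters and the quinone site, were not called. Ndufv1, which binds NADH, was 8.51, 8.58 and 8.39 against 8.27, 8.36 and 8.07, with groups that did not overlap and a log2 fold change of 0.26 (95% CI 0.01 to 0.50, adjusted p = 0.156). Ndufs1 was 9.86, 9.80 and 9.96 against 10.07, 9.90 and 9.54 (log2 fold change 0.04, 95% CI -0.30 to 0.37) and Ndufs7 had a log2 fold change of 0.01 (95% CI -0.38 to 0.41). Of the 28 members counted as accessory subunits, Ndufa4 among them, 2 rose and 2 fell, with a median of -0.17. None of the 9 Ndufb members, which belong to the membrane arm, was called; the lowest was Ndufb6 (log2 fold change -0.53, adjusted p = 0.104).

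Complex III had 1 member lower of 8 and none higher, with a median of -0.14. Uqcrh (10515253), the acidic hinge protein beside cytochrome c1, was 7.27, 7.37 and 7.12 in the knock-down lines, against 7.83, 7.97 and 8.17 in the control lines. All knock-down lines were lower, and Uqcrh fell to 60.1% of control (SE of the log2 fold change 0.11, adjusted p = 0.00640). Uqcrc1, a core protein, was 9.27, 9.42 and 9.35 against 9.39, 9.62 and 9.35 (log2 fold change -0.10, 95% CI -0.34 to 0.13). Uqcrfs1, the Rieske iron-sulfur protein, had a log2 fold change of -0.18 (95% CI -0.44 to 0.07). Uqcrq, a small subunit named after its values were seen for having the highest value outside the calls, was 8.71, 8.92 and 8.57 against 7.71, 8.25 and 8.49. Its groups just failed to overlap, its controls were spread widely, and its log2 fold change of 0.58 was not called (95% CI 0.10 to 1.07, adjusted p = 0.106).

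No member of complex II, which is also the succinate dehydrogenase of the tricarboxylic acid cycle, was called, at any of the settings run. Sdha, the flavoprotein, was 9.64, 9.71 and 9.55 in the knock-down lines, against 9.51, 9.58 and 9.41 in the control lines (log2 fold change 0.13, 95% CI -0.07 to 0.34). Sdhb, the iron-sulfur subunit, was 7.48, 8.05 and 7.34 against 7.55, 7.98 and 7.70 (log2 fold change -0.12, 95% CI -0.61 to 0.37). The membrane anchors Sdhc and Sdhd had log2 fold changes of -0.07 and 0.13. The groups overlapped in all 4 genes.

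Arrays differed in these genes beyond the groups. Control replicate 1 had the lowest control value in 49 of 78 members (62.8%) and in 26.8% of genes above background. Nkx2-1-shRNA replicate 2 had the highest Nkx2-1-shRNA value in 57 members (73.1%), against 35.2% of genes above background. In complex V these were 14 and 16 of 17. Cytosolic ribosomal protein genes, which share short and abundant mRNAs with the members but none of their functions, had the same arrays at the ends in 60.4% and 75.5% of 53 genes, with 2 higher and 1 lower. The part of array quality or of growth state in this was not tested. The median SD was 0.16 in the control lines and 0.12 in the Nkx2-1-shRNA lines over the members, and 0.11 and 0.086 over genes above background. Of the 63 members not called, the 95% confidence interval lay within 0.5 of 0 for 33 and within 1 for 61, so that changes of moderate size cannot be told from none for many of them. A further 8 members below 0 and 1 above 0 had an adjusted p between 0.05 and 0.1, a count not made over all genes.

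Other genes of the same organelle were read from lists. Of the mitochondrially encoded subunits 2 carried a single symbol, ND3 (log2 fold change -0.37, adjusted p = 0.0731) and COX2 (-0.05). Neither was called, and the cluster read for COX2 stands among nuclear genes of chromosome 1. For that of ND3, 6 of the 10 nearest single-cluster genes were on chromosome 9, which does not settle its place. None of 6 subunits or subunit partners outside the symbol rule, such as Cox4i1 (-0.12) and Cyc1 (-0.20), was called. Assembly factors, which help build the complexes without staying in them, changed in both directions. Of 14 for complex I, 1 rose (Nubpl, log2 fold change 0.35) and 2 fell, Ndufaf7 (-0.63, adjusted p = 0.0176) and Ndufaf3 (-0.50, adjusted p = 0.00797). Of 4 for complex II, 2 fell, Sdhaf1 (-0.54, adjusted p = 0.00783) and Sdhaf2 (-0.30, adjusted p = 0.0417). Of 16 for complex IV, 2 rose and none fell: the copper chaperone Cox17 (0.69, adjusted p = 0.0106) and Cox18 (0.42, adjusted p = 0.0372). For complexes III and V, Uqcc2 (0.44) and Tmem70 (0.35) rose, of 6 and 3 factors.

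Among 15 regulators of mitochondrial biogenesis 5 fell and none rose. The deacetylase gene Sirt1 was 7.37, 7.49 and 7.52 in the knock-down lines, against 8.03, 8.08 and 8.00 in the control lines and fell by 0.58 (adjusted p = 0.00374). Smaller falls were called for Ppara (0.31), Ppargc1b (0.30), Yy1 (0.30) and Nrf1 (0.29), with adjusted p from 0.0356 to 0.0490. Ppara was 4.29, 4.34 and 4.21 in the knock-down lines, all below the background limit, against 4.62, 4.66 and 4.49 in the control lines. Ppargc1b was 4.63, 4.58 and 4.57 against 4.83, 4.85 and 4.99, near that limit. Nrf1 encodes the nuclear respiratory factor that binds the motif shown in capitals in the Atp5g2 promoter. Of 12 genes of mitochondrial DNA maintenance and transcription, Tfam, which packages mitochondrial DNA, was 7.35, 7.54 and 7.34 against 7.89, 7.96 and 8.24 and fell by 0.62 (adjusted p = 0.0140). Polg2 also fell (by 0.55, adjusted p = 0.00730) and Tfb1m rose by 0.81 (adjusted p = 0.00359).

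In the tricarboxylic acid cycle 3 of 14 genes fell and 1 rose. Citrate synthase (Cs) was 9.79, 9.79 and 9.90 against 10.63, 10.52 and 10.54 and fell by 0.74 (adjusted p = 0.00139), Idh3a fell by 0.56 (adjusted p = 0.00553) and Dlst by 0.48 (adjusted p = 0.00758). Idh2 rose by 0.47 (adjusted p = 0.0280). Of 11 genes of pyruvate dehydrogenase, its control and pyruvate entry 4 rose and 2 fell. Those that rose include the pyruvate carrier gene Mpc1 (0.47, adjusted p = 0.0299). Its cluster stands among genes of chromosome 12, although the gene is encoded on chromosome 17. Pdk1, a kinase that switches the enzyme off, rose to 214% of control (adjusted p = 0.00325), and the phosphatase gene Pdp1, which switches it on, rose by 0.80 on the log2 scale (adjusted p = 0.00150). The phosphatase gene Pdp2 fell by 0.89 and the structural subunit gene Pdhx by 0.86 (adjusted p = 0.00355 and 0.00317). Glycolysis had 11 of 14 genes higher, none lower and a median of 0.66, the highest of the lists, with the largest rises in the hexokinase gene Hk2 (1.82, adjusted p = 1.2e-04), the phosphofructokinase gene Pfkp (1.74), the glucose transporter gene Slc2a1 (1.32) and Ldhb (0.88). The clusters read for Ldhb and for Pgk1 and Pkm, also called higher, stand among genes of other chromosomes. The list shares its arrays with the members, and the difference between the lists was not tested.

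Of 21 genes of mitochondrial import 7 fell and 1 rose, the chaperonin gene Hspe1 falling by 0.83 (adjusted p = 0.00723) and the Hsp70 gene Hspa9 rising by 0.54 (adjusted p = 0.00360). Of 9 carrier and channel genes 2 rose and 2 fell, and the adenine nucleotide carrier gene Slc25a4, which exports the ATP made by complex V, fell by 0.62 (adjusted p = 0.0252). Of 12 genes of ubiquinone synthesis and cytochrome c 2 rose and 2 fell, Coq2 rising by 0.80 (adjusted p = 0.00131) and Pdss2 falling by 0.56 (adjusted p = 0.00771). Mitochondrial ribosomal proteins, the largest list with 77 genes, had 7 higher, 6 lower and a median of -0.02. Their largest fall was that of Mrpl49 (0.83, adjusted p = 0.00209) and their largest rise that of Mrpl23 (0.73, adjusted p = 0.00457).

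**Figure D4:**
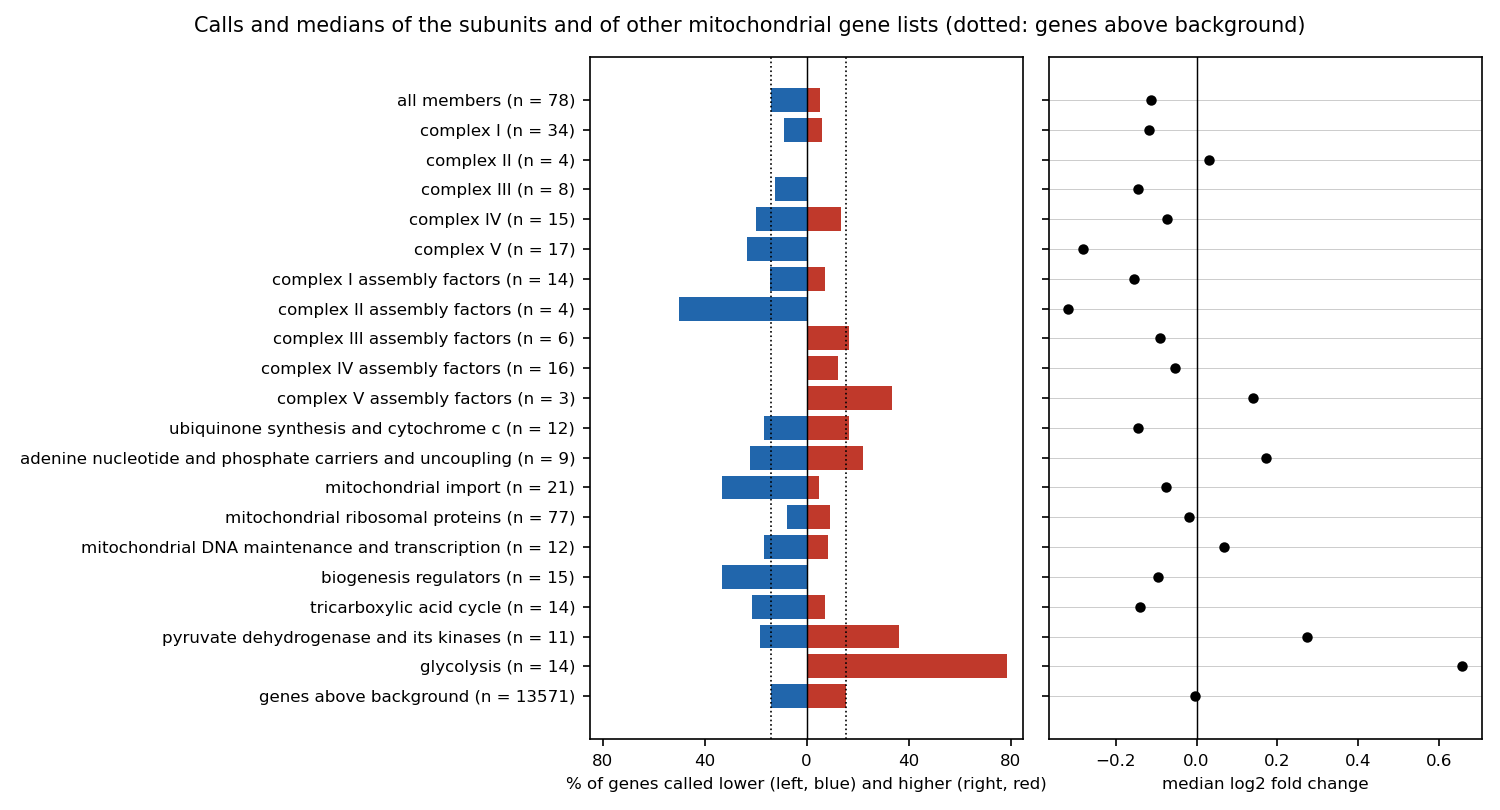
Left, percent of genes called lower (blue, left) and higher (red, right) among the subunits, their complexes and other gene lists, with dotted lines at the shares of genes above background (13.9% and 15.3%); right, the median log2 fold change of each list. Complex V has the lowest median of the 5 complexes (-0.28) and glycolysis the highest of the lists drawn (0.66).

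Nuclear respiratory genes are known to share promoter motifs for NRF1, for ETS family factors such as GABP and for YY1. Promoter windows from 250 bases before to 50 after a start were held for 66 of the 78 members and for 27025 genes in all, and were searched on both strands. A gene was counted for a motif if any of its windows held it. The NRF1 motif with 1 free base in its middle was found for 24.2% of members and 5.19% of all genes with a window. Its exact form was found for 7.58% and 1.07%. The exact form is also a match to the first. The ETS motif CCGGAAG was found in 25.8% and 9.93%, the YY1 motif AAGATGGCG in 10.6% and 1.64%, and the CRE TGACGTCA in 6.06% and 2.03%. The SP motif GGGCGG (40.9% and 38.2%) and CAAG, the core of the site bound by NKX2-1 (90.9% and 91.9%), were about as common in members as elsewhere. Among 10 members called lower that had a window, 4 held the ETS motif, 2 the NRF1 motif with 1 free base and 8 CAAG, and among 53 members not called 13, 13 and 50 did. In their whole windows Atp5g2 and Atp5g3 held the NRF1 motif with 1 free base and Ndufa9 the YY1 motif, while Atp5g1 and Cox7a1 held none of the motifs but CAAG. A match describes letters only, and binding was not measured.

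**Figure D5:**
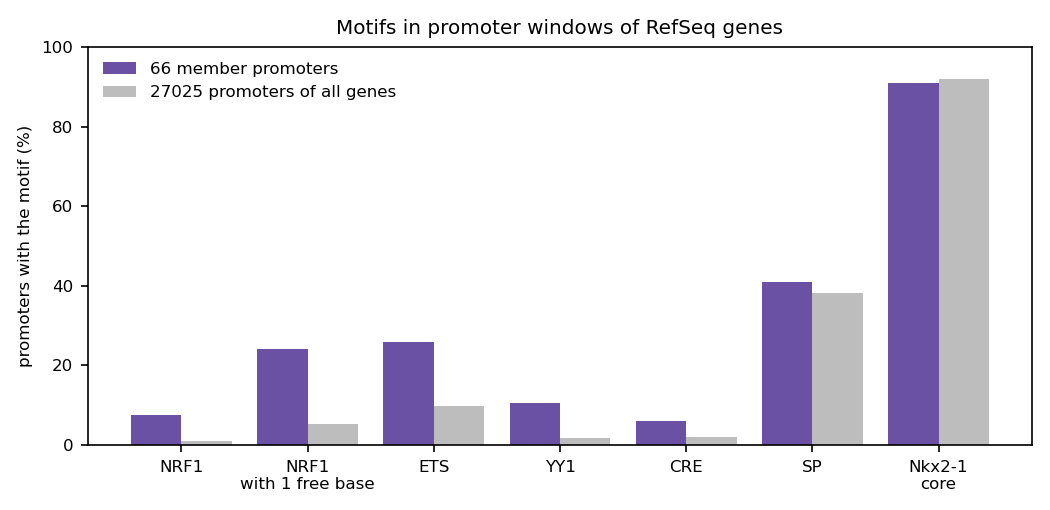
Percent of genes with each motif on either strand in at least 1 promoter window, for 66 members (purple) and 27025 genes (grey). Bars of members are higher for the NRF1, ETS, YY1 and CRE motifs and nearly level for the SP motif and the core of the Nkx2-1 site.

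Members were also set beside their neighbors on the chromosome, the 20 nearest genes above background (16 for Ndufa3 and 19 for Ndufs8). The median of the neighbors had the same sign as the member in 39 of 78 members, and in 9 of the 15 called members. Among called members that median ran from -0.18 (Ndufs3) to 0.31 (Ndufa9). Atp5g3 lay among genes with a median of -0.17, 4 of them lower and none higher, and Atp5mpl among genes with a median of -0.12. The members lie on 19 chromosomes. The part of neighbors in each member's value was not tested.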

How the data were processed

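The 6 MLE15 lines (3 Nkx2-1-shRNA, 3 control) were measured on Affymetrix Mouse Gene 1.0 ST arrays, 1 per line. The authors used RMA in Affymetrix Expression Console 1.1 (background correction, quantile normalization, probe summary), so the deposited values are log2 intensities of 35557 transcript clusters. The genome build of the probe sets is not given in the sources used here. Quantile normalization removes shifts shared by all genes and RMA compresses changes near background.

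Groups were compared with limma 3.58.1 (lmFit, eBayes, default prior; R 4.3.3; 4 residual and 2.86 prior degrees of freedom), with Benjamini-Hochberg adjustment over all transcript clusters. Calls are at an adjusted p under 0.05. Symbols came from the platform annotation. No set was tested. The number of arrays limits the precision. The tests were tried on simulated data.

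The members, lists, motifs and alternatives were chosen with earlier results of these data known. Named genes are all called members, core subunits, isoform partners, up to 4 called genes with the largest change per list and Nkx2-1; any other gene named, mostly uncalled members and list genes and also Nrf1, Pgk1 and Pkm, was chosen after its values were seen. Alternatives were quantile normalization repeated, median centring, another prior, t-tests, a replicate block, filters, cluster choices, omission of each array and the study's threshold. Same-numbered arrays did not deviate together, so replicates were not paired. Promoter sequences and gene order are from RefSeq (GRCm38.p6). Replicate spread is between lines called independent in the methods.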

Additional observations from a re-analysis of the deposited data

How the results depend on the processing

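Counts were 4 members higher and 11 lower. They were 2 and 4 with the methods' t-test, 1 and 2 with a t-test for unequal variances, and 0 and 0 at the study's threshold. Members called lower were 19 among transcript clusters above background and 21 among those with 1 gene symbol. Both settings refitted the model and adjusted p on fewer transcript clusters. Members below 0 with an unadjusted p under 0.05 in limma were 26 and 28 there, against 24 in the main fit. The cause of the added calls was not tested. Without 1 array, 1 to 3 members were higher and 5 to 14 lower. The fewest lower calls (5) came without Nkx2-1-shRNA replicate 1 or control replicate 2, and there were 6 without Nkx2-1-shRNA replicate 3, 7 without Nkx2-1-shRNA replicate 2 and 14 without control replicate 1. With Nkx2-1-shRNA replicate 1, 2 or 3 left out, 1 member was higher. Array omission reduces the residual degrees of freedom; the cause of the other changes was not tested.

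Complex I had 2 higher and 3 lower, with 5 lower under a trended and robust prior, 6 above background, 8 with 1 gene symbol, 1 higher and 0 lower with either t-test, and 0 and 0 at the study's threshold. Without 1 array it had 1 to 2 higher and 0 to 4 lower, with medians from -0.21 to -0.065. Complex III had 1 lower; 2 with repeated quantile normalization or the trended prior, 3 above background, 3 with 1 gene symbol (1 higher there), 0 with unequal variances, 0 at the study's threshold and 1 to 2 without 1 array. Complex IV had 2 higher and 3 lower; median centring gave 1 lower, the methods' t-test 1 and 1, unequal variances 0 and 0, the study's threshold 0 and 0, the own-locus transcript cluster (added after seeing the data) 1 higher, and array omission 0 to 2 higher and 1 to 3 lower. Its median of -0.07 was 0.0086 after median centring and ran from -0.15 to 0.0010 without 1 array. Complex V had 4 lower, 6 above background or with 1 gene symbol, 2 with either t-test, 0 at the study's threshold and 3 to 5 without 1 array. The median of complex II (0.03) was -0.0315 without control replicate 3, and ran from there to 0.091 without Nkx2-1-shRNA replicate 3. None of the 15 called members changed sign in any setting, while some members not called did, such as Cox7a2 (-0.49 to 0.05).

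With the replicate number as a block, 2 members were higher (none in complex IV, so 0) and 8 lower (1 in complex I, 2 in complex III, 1 in complex IV); 2 of the 4 higher and 6 of the 11 lower calls were kept. Deviations of same-numbered lines correlated at 0.058, 0.14 and -0.034, and the numbers were not taken as pairs.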
